A study of Mus musculus with 6 samples.

Results

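Transforming growth factor-beta (TGF-beta) ligands, their receptors and the latent binding proteins that hold them in matrix were followed in the dental pulp of WT mice and of mice without Mmp13. The 10 genes are Tgfb1, Tgfb2, Tgfb3, Tgfbr1, Tgfbr2, Tgfbr3, Ltbp1, Ltbp2, Ltbp3 and Ltbp4. They were chosen by gene symbol among the 53342 genes of the expression table, and all 10 were among the 24534 genes with enough counts to be tested. RNA sequencing was carried out on total RNA from pulp of C57BL/6 mice aged 3 months, 3 WT (samples 2, 4 and 5) and 3 MMP13KO (Mmp13-/-, samples 1, 2 and 6), described as independent biological samples. Mmp13-/- mice lack the collagenase MMP13 in every tissue, so pulp cells and the cells that reach the pulp carry the same deletion. Molars and a column kit are named in the sample labels, incisors and TRIzol in the study's methods. No sequencing batch or date is given, and genotype and any batch therefore cannot be told apart.

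TGF-beta is secreted in a latent form, in which the cleaved propeptide stays wrapped around the mature growth factor. Ltbp1, Ltbp3 and Ltbp4 encode proteins that bind this complex and anchor it to fibrillin and fibronectin fibers, whereas the Ltbp2 product shares their structure but does not bind the latent growth factor. Freed ligand binds the type II receptor (Tgfbr2), which phosphorylates the type I receptor (Tgfbr1), while betaglycan (Tgfbr3) presents ligand, Tgfb2 above all. Odontoblasts express and respond to TGF-beta, and the growth factor is stored in dentin matrix.

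The libraries held between 28442936 and 29980236 estimated counts in WT and between 21561420 and 26547121 in Mmp13-/- pulp. Mmp13 measured 36.9, 39.2 and 30.2 CPM in WT and 0.317, 1.10 and 2.32 CPM in Mmp13-/- pulp, where CPM are counts per 1000000 after TMM scaling, edgeR's adjustment of library sizes. Mmp13-/- sample 6 stood apart, since 30.5% of its counts fell on a single gene, Gm10800, against 6.88% in Mmp13-/- sample 2; in the other 4 libraries the leading gene was Ttn, at 4.48% to 5.95%. Odorant and vomeronasal receptor genes, used as a measure of background reads, summed to 18.1 to 21.4 CPM in WT and to 257, 315 and 1494 CPM in Mmp13-/- samples 1, 2 and 6. Such background came to at most 8.31% of the count of any of the 10 genes in any library, the highest value being for Ltbp2.

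Of the 10 genes, 3 were lower in Mmp13-/- pulp by more than 2-fold (Tgfb1, Ltbp3 and Ltbp4) and 1 was higher (Tgfbr1), in edgeR's quasi-likelihood test with a Benjamini-Hochberg adjusted p under 0.05 over all genes tested. Over all genes, 9.68% were lower and 20.4% higher by this rule. At any fold, 6 of the 10 passed as lower and 1 as higher, beside 24.3% and 27.3% of all genes, and 3 did not pass (Tgfb2, Ltbp1 and Ltbp2). Every Mmp13-/- sample lay below every WT sample for 7 of the 10 and above for 1, Tgfbr1, whereas the genotypes overlapped for Tgfb2 and Ltbp1. Over all genes tested, 29.1% did not overlap with Mmp13-/- below and 31.9% with Mmp13-/- above. The median log2 fold change, Mmp13-/- minus WT, was -0.48 for the 10 genes and 0.10 for all genes tested. The counts by the 2-fold rule were also 3 lower and 1 higher without Mmp13-/- sample 6. With any other single sample left out they were 4 lower and 1 higher.

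**Figure D1:**
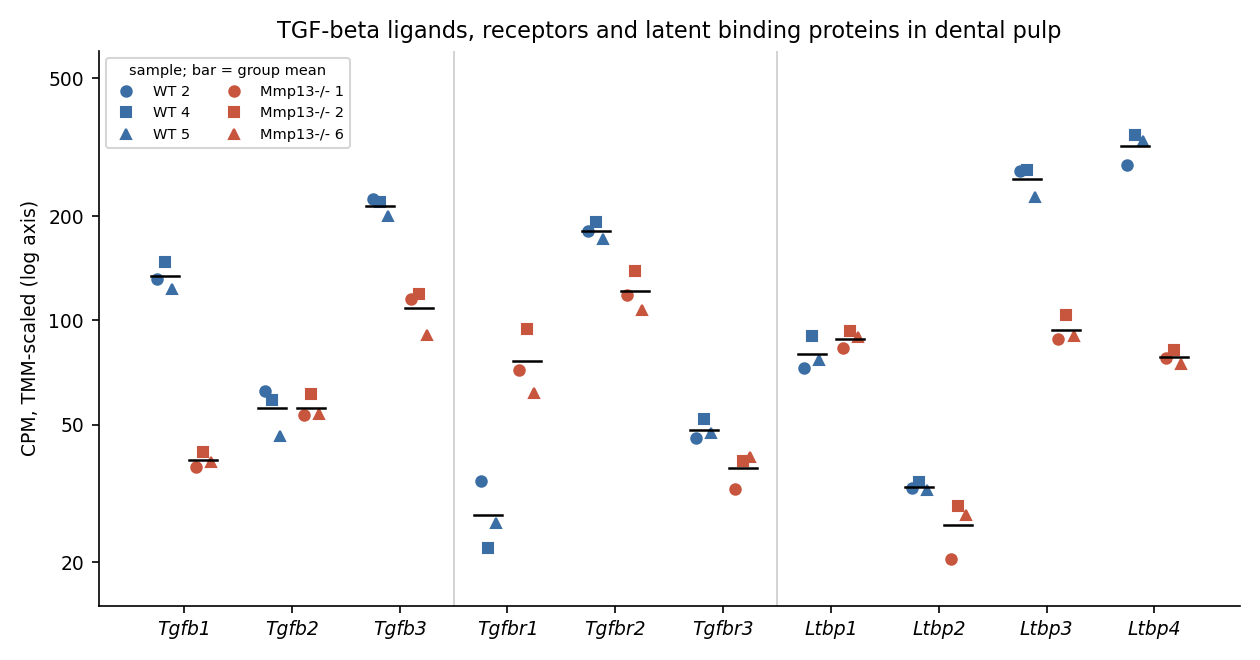
Expression of the 10 genes in each sample (y axis, CPM after TMM scaling, log axis), grouped as ligands, receptors and latent binding proteins; points are samples, blue WT and red Mmp13-/-, and bars are group means. Points of the genotypes lie fully apart for 8 of the 10 genes and overlap for Tgfb2 and Ltbp1.

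Among the ligands, Tgfb1 and Tgfb3 fell in Mmp13-/- pulp and Tgfb2 showed no detectable difference. In bulk tissue, fewer cells of a type and less RNA per cell cannot be told apart. Tgfb1 (ENSMUSG00000002603, chr7:25687002-25705077, plus strand of GRCm38), which encodes the isoform stored in bone and dentin, measured 131, 147 and 123 CPM in the WT samples, in the order 2, 4, 5, and 37.8, 41.7 and 38.9 CPM in the Mmp13-/- samples, in the order 1, 2, 6, as for all values that follow. The genotypes were far apart, and the spread within a genotype was small, with a coefficient of variation of 8.95% in WT and 5.04% in Mmp13-/- pulp. The decrease was 3.39-fold (log2 fold change -1.76 ± 0.14 SE, edgeR adjusted p = 4.88e-05), and the log2 fold change ranged from -1.89 to -1.73 when each sample was left out in turn.

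Tgfb3 (chr12:86056745-86079041, minus strand), the isoform known for palate fusion, measured 223, 219 and 200 CPM in WT and 115, 119 and 91.0 CPM in Mmp13-/- pulp. All Mmp13-/- samples lay below all WT samples, and the lowest value was that of Mmp13-/- sample 6. The log2 fold change was -0.98 ± 0.16 SE (edgeR adjusted p = 0.000963), just short of 2-fold, and lay between -1.11 and -0.87 over the fits that left out a sample. Tgfb3 therefore counted as more than 2-fold lower in each of those fits except that without Mmp13-/- sample 6.

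Tgfb2 (chr1:186622792-186705989, minus strand), the ligand that needs betaglycan for strong receptor binding, measured 62.4, 58.8 and 46.4 CPM in WT and 53.3, 61.1 and 53.5 CPM in Mmp13-/- pulp. The genotypes overlapped fully, with Mmp13-/- values inside the WT range. The log2 fold change was 0.00 ± 0.15 SE, with a 95% interval from -0.34 to 0.34 (edgeR adjusted p = 0.991).

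The receptors moved in opposite directions. Tgfbr1 (chr4:47353222-47414931, plus strand), the type I receptor kinase that phosphorylates Smad2 and Smad3, measured 34.4, 22.0 and 26.1 CPM in WT and 72.0, 94.5 and 61.9 CPM in Mmp13-/- pulp. Each Mmp13-/- value was above each WT value, although the spread within a genotype was the widest of the 10 genes, with a coefficient of variation of 23.0% in WT and 22.0% in Mmp13-/- pulp. Tgfbr1 rose 2.77-fold (log2 fold change 1.47 ± 0.21 SE, edgeR adjusted p = 0.000419), with a range of 1.23 to 1.60 over the fits that left out a sample.

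Tgfbr2 (chr9:116084293-116175360, minus strand), the ligand-binding type II kinase, measured 180, 192 and 172 CPM in WT and 118, 139 and 107 CPM in Mmp13-/- pulp. The genotypes did not overlap, and the decrease was smaller than that of Tgfb1 (log2 fold change -0.58 ± 0.16 SE, edgeR adjusted p = 0.0117). Tgfbr3 (chr5:107106570-107289629, minus strand) measured 45.7, 52.0 and 47.3 CPM in WT and 32.6, 39.1 and 40.3 CPM in Mmp13-/- pulp. Its log2 fold change of -0.37 ± 0.14 SE passed narrowly (edgeR adjusted p = 0.0463) and did not pass without WT sample 4 (0.115), WT sample 5 (0.0678), Mmp13-/- sample 1 (0.134) or Mmp13-/- sample 2 (0.0540) in the same edgeR test.

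Bases just before the transcription start are shown for the ligand with the largest decrease, the ligand without a detectable difference and the receptor that rose. They are the 250 bases upstream of the RefSeq start on GRCm38, 5′ to 3′ on the strand of the gene, with capitals marking each GC box, GGGCGG on either strand. The windows are chr7:25686752-25687001 on the plus strand for Tgfb1, chr1:186705990-186706239 on the minus strand for Tgfb2 and chr4:47352972-47353221 on the plus strand for Tgfbr1.
Tgfb1: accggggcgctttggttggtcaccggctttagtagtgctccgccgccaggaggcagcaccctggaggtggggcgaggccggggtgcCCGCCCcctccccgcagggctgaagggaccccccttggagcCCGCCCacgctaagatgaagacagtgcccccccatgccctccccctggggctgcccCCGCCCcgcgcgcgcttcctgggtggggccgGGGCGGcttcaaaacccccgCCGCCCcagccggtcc
Tgfb2: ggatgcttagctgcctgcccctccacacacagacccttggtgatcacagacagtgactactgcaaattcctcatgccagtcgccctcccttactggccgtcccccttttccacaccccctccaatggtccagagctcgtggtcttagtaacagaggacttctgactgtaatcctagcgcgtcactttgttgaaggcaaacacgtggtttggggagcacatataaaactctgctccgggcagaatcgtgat
Tgfbr1: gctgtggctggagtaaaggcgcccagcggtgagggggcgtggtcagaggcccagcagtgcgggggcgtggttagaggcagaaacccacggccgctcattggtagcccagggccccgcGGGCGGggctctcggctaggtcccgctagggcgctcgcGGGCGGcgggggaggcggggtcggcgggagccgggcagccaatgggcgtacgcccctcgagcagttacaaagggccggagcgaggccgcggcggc
Tgfb1 and Tgfbr1, which changed in opposite directions, both had GC-rich windows (75.2% and 74.8% GC) with 5 and 2 GC boxes. Tgfb2 had 53.6% GC, no GC box and 1 TATA box (TATAAA). Among the 32851 windows of all RefSeq genes of this length, 32.7% held a GC box and 12.4% a TATA box on either strand, and the median GC content was 52.4%. Of the SMAD box (CAGAC, either strand), held by 42.2% of all windows, Tgfb2 had 2 matches and Tgfb1 and Tgfbr1 had 0. A match describes the letters only. None of the 8 members listed in the RefSeq promoter table had an AP-1 match (TGANTCA, either strand), beside 6.75% of all windows.

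Of the latent binding proteins, Ltbp3 and Ltbp4 fell and Ltbp1 and Ltbp2 did not pass the test. Ltbp4 (chr7:27305136-27337692, minus strand), which binds latent Tgfb1 and is needed for elastic fiber assembly, measured 280, 343 and 330 CPM in WT and 78.0, 82.2 and 74.7 CPM in Mmp13-/- pulp. It showed the largest fold change of the 10 genes under TMM scaling, 4.06-fold lower (log2 fold change -2.02 ± 0.16 SE, edgeR adjusted p = 4.7e-05). Ltbp3 (chr19:5740904-5758532, plus strand), whose loss in humans gives thin enamel and short stature, measured 269, 272 and 226 CPM in WT and 88.4, 103 and 90.2 CPM in Mmp13-/- pulp. It was 2.72-fold lower, again without overlap (log2 fold change -1.44 ± 0.16 SE, edgeR adjusted p = 0.000150).

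Ltbp1 (chr17:75005568-75392512, plus strand), which carries latent TGF-beta to fibronectin and fibrillin, measured 72.8, 89.97 and 77.0 CPM in WT and 83.2, 92.9 and 89.2 CPM in Mmp13-/- pulp. The genotypes overlapped, and the log2 fold change was 0.15 ± 0.14 SE with a 95% interval from -0.18 to 0.47 (edgeR adjusted p = 0.422). Ltbp2 (chr12:84783212-84876532, minus strand) measured 32.8, 34.1 and 32.4 CPM in WT and 20.4, 29.1 and 27.4 CPM in Mmp13-/- pulp. Although its genotypes did not overlap, the log2 fold change of -0.37 ± 0.16 SE did not pass (edgeR adjusted p = 0.0744, 95% interval -0.72 to -0.02), and it passed when Mmp13-/- sample 2 was left out (-0.53, edgeR adjusted p = 0.0358).

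Some exons of Ltbp2, Tgfb2, Tgfbr3 and Tgfb3 overlap other genes, and the strand used in counting is not given in the sources used here, so reads in the shared bases could belong to either gene. The overlaps covered 764 bases of Ltbp2 (D030025P21Rik), 124 of Tgfb2 (Gm29491), 297 of Tgfbr3 (Gm43422, same strand), and 163 and 257 of Tgfb3 (Gm37804 and Gm48008).

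Transcript GC content moved with the difference between genotypes across all genes. Among 10 equal bins of protein-coding genes ordered by GC content, the median log2 fold change was 0.76 in the bin with the lowest GC content and -1.12 in that with the highest. Tgfbr1, the only member that passed as higher, had 41.0% GC and lay in the lowest bin. Ltbp4 (62.2%), Ltbp2 (58.5%) and Ltbp3 (58.3%) lay in the highest, and Tgfb1 (52.5%), Ltbp1 (52.7%) and Tgfb3 (53.0%) shared the seventh, with a median of -0.61. Over the 10 genes, which share the 6 libraries, the log2 fold change and GC content had a Pearson r of -0.79 and a Spearman rho of -0.60, given as a description. Relative to the median of its own bin, Tgfb1 was lower by a log2 difference of -1.16, Ltbp4 by -0.91, Tgfb3 by -0.38 and Ltbp3 by -0.33. Tgfbr1 stood 0.71 above its bin, and Ltbp1 and Ltbp2, which had not passed the test, each stood 0.75 above theirs.

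**Figure D2:**
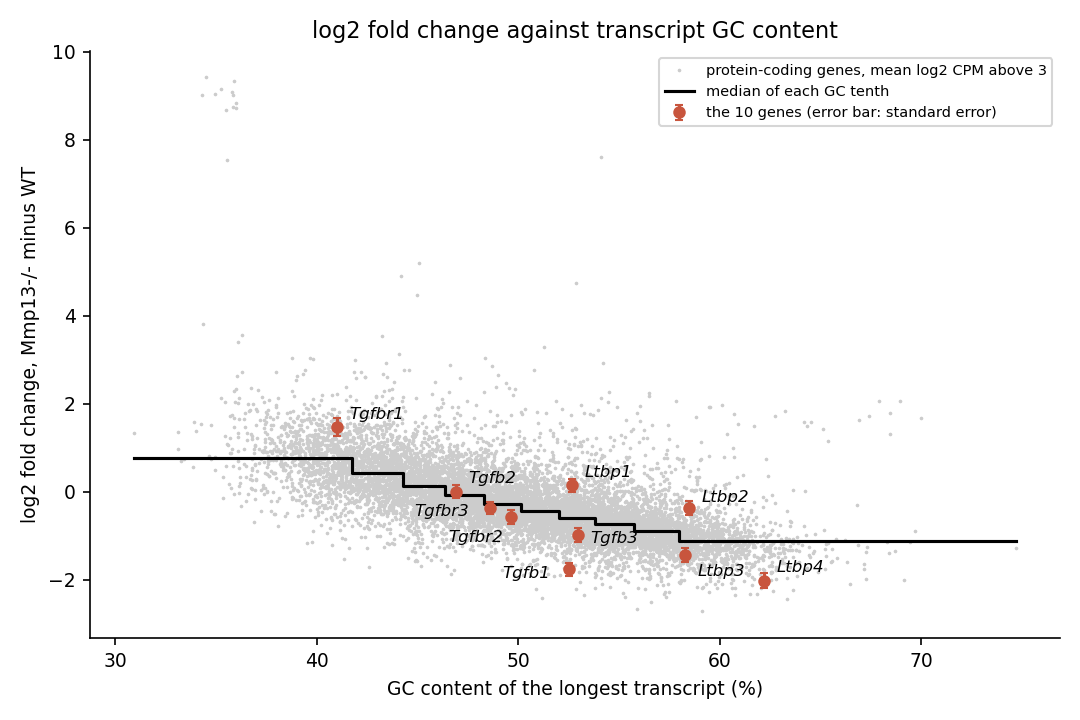
Log2 fold change, Mmp13-/- minus WT (y axis), against GC content of the longest transcript in percent (x axis); gray points are protein-coding genes with a mean log2 CPM above 3, the stepped line is the median of each GC bin and red points are the 10 genes with standard error bars. Tgfb1 differs from the line of its bin by -1.16, while Ltbp1 and Ltbp2 lie 0.75 above theirs.

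When each library was corrected for GC content by a loess curve, the members' values moved and fewer were called. By the 2-fold rule, 1 of the 10 remained lower, Tgfb1, beside 2.4% of all genes, and 0 were higher, beside 17.9%. At any fold in the same edgeR test, 3 passed as lower (Tgfb1, Tgfb3 and Ltbp4) and 3 as higher (Tgfbr1, Ltbp1 and Ltbp2), beside 9.52% and 26.7% of all genes. With the correction the median over all tested genes shifted up by 0.23 to a log2 fold change of 0.33, and that of the 10 genes became -0.15. Of all calls by the 2-fold rule, 67.8% were higher in Mmp13-/- pulp under TMM scaling, 81.4% with upper-quartile factors and 88.2% with GC correction.

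Tgfb1 was lower by -1.15 ± 0.12 SE on the log2 scale after GC correction (edgeR adjusted p = 0.000465) and Ltbp4 by -0.79 ± 0.10 SE (edgeR adjusted p = 0.00103). Taken relative to the median of all genes, Tgfb1 moved from -1.87 under TMM scaling to -1.48 with the correction, and Ltbp4 from -2.13 to -1.12. Ltbp3 was at -0.38 and at the threshold of the test (edgeR adjusted p = 0.0501), and Tgfb3 was at -0.34 (edgeR adjusted p = 0.0300). Tgfb1 thus had the largest decrease of the 10 genes after correction, in place of Ltbp4.

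Tgfbr1 was higher by 0.96 ± 0.14 SE after correction (edgeR adjusted p = 0.00170), under 2-fold. Ltbp1 rose to 0.78 (edgeR adjusted p = 0.00304), and Ltbp2 turned from -0.37 to 0.72 (edgeR adjusted p = 0.0125). Tgfbr2 was at -0.21 and Tgfbr3 at -0.08, and neither passed (edgeR adjusted p = 0.146 and 0.718). Tgfb2 did not pass in any treatment, with 0.12 after correction (edgeR adjusted p = 0.524). Subtraction of background reads moved the members less, for example Tgfb1 to -1.62, Tgfb3 to -0.83 and Tgfbr1 to 1.61. The exception was Tgfb2, which moved slightly more, to 0.15. Tgfbr3 did not pass after subtraction (-0.23, edgeR adjusted p = 0.195).

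**Figure D3:**
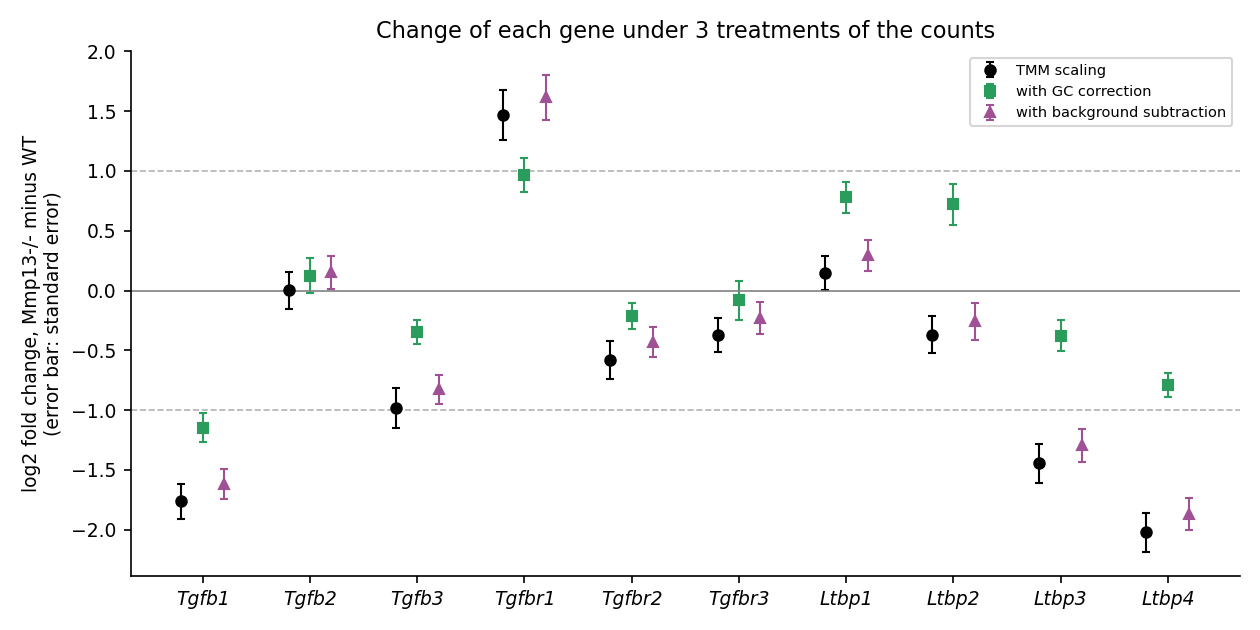
Log2 fold change of each gene, Mmp13-/- minus WT, with standard error bars, under TMM scaling (black), with GC correction (green) and with background subtraction (purple); dashed lines mark 2-fold. Tgfb1 stays below -1 in all 3, Ltbp4 lies at -0.79 and Tgfbr1 at 0.96 with GC correction, and Ltbp2 changes sign.

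Levels of different genes were compared per kilobase of exon. In WT pulp the order was Tgfb3 (63.3 ± 3.70 CPM per kilobase, SD, n = 3), Ltbp4 (49.2 ± 5.13), Ltbp3 (28.2 ± 2.81), Tgfb1 (26.6 ± 2.38), Tgfbr2 (22.2 ± 1.21), Tgfb2 (9.65 ± 1.45), Ltbp1 (7.48 ± 0.84), Tgfbr3 (7.39 ± 0.50), Tgfbr1 (4.21 ± 0.97) and Ltbp2 (4.04 ± 0.11). The neighbors Ltbp3 and Tgfb1, Tgfb2 and Ltbp1, Ltbp1 and Tgfbr3, and Tgfbr1 and Ltbp2 overlapped between samples, and the other neighbors did not. In Mmp13-/- pulp the order was Tgfb3 (32.0 ± 4.49 CPM per kilobase, SD, n = 3), Tgfbr2 (14.8 ± 1.97), Ltbp4 (12.1 ± 0.58), Tgfbr1 (11.7 ± 2.56), Ltbp3 (10.4 ± 0.90), Tgfb2 (9.66 ± 0.77), Ltbp1 (8.27 ± 0.46), Tgfb1 (7.83 ± 0.39), Tgfbr3 (5.71 ± 0.63) and Ltbp2 (3.13 ± 0.56). Here Ltbp4 and Tgfbr1, Tgfbr1 and Ltbp3, Ltbp3 and Tgfb2, and Ltbp1 and Tgfb1 overlapped. Tgfb3 was first and Ltbp2 last in both genotypes, Tgfb1 went from rank 4 to rank 8 and Tgfbr1 from rank 9 to rank 4. Exon length is that of all annotated exons of a gene, so a level per kilobase is understated for a gene that uses few of them.

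The make-up of each class was then compared, as each gene's share of the summed counts per kilobase of its class. Tgfb1 made up 25.3%, 28.0% and 26.7% of ligand expression in WT pulp and 14.8%, 15.3% and 17.6% in Mmp13-/- pulp. Its share was lower by -10.8 percentage points, from 26.7 ± 1.35% to 15.9 ± 1.503% (SD), and the genotypes did not overlap; the 2-sided exact permutation test gave p = 0.1, the smallest value that 3 samples against 3 allow. Tgfb2 took a larger share, 19.6 ± 1.46% against 9.67 ± 0.87% in WT, and Tgfb3 held 64.5 ± 2.93% against 63.6 ± 1.24%. Both Tgfb1 and Tgfb3 fell in CPM, but the make-up shifted between Tgfb1 and Tgfb2, and the share of Tgfb3 differed by less than its spread. With GC correction the Tgfb1 share differed by -10.2 points.

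Per kilobase, Tgfbr2 exceeded Tgfbr1 4.19-fold, 6.96-fold and 5.27-fold in WT pulp and 1.31-fold, 1.17-fold and 1.38-fold in Mmp13-/- pulp. The ratio was lower in each Mmp13-/- sample than in any WT sample. The log2 ratio was 2.42 ± 0.37 in WT and 0.36 ± 0.12 in Mmp13-/- pulp (SD), a difference of -2.06 (exact permutation p = 0.1, the smallest possible). With GC correction it was 1.98 ± 0.22 and 0.80 ± 0.09, a difference of -1.18. Among receptors, Tgfbr1 made up 36.0 ± 2.86% in Mmp13-/- pulp against 12.5 ± 2.83% in WT, and Tgfbr2 46.1 ± 1.13% against 65.7 ± 1.63%.

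Ltbp3 and Ltbp4 together made up 87.1%, 86.8% and 87.2% of latent binding protein expression in WT and 68.0%, 66.3% and 64.8% in Mmp13-/- pulp, a difference of -20.7 points (exact permutation p = 0.1, the smallest possible) that was -16.1 points with GC correction. The spread in WT was only 0.19 points (SD). The lower share lay with Ltbp4, at 35.8 ± 1.57% against 55.3 ± 3.45%, whereas Ltbp3 held 30.6 ± 0.71% against 31.8 ± 3.42%. Ltbp1 took 24.4 ± 0.64% against 8.39 ± 0.36%, a larger share although its own level did not pass the test.

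**Figure D4:**
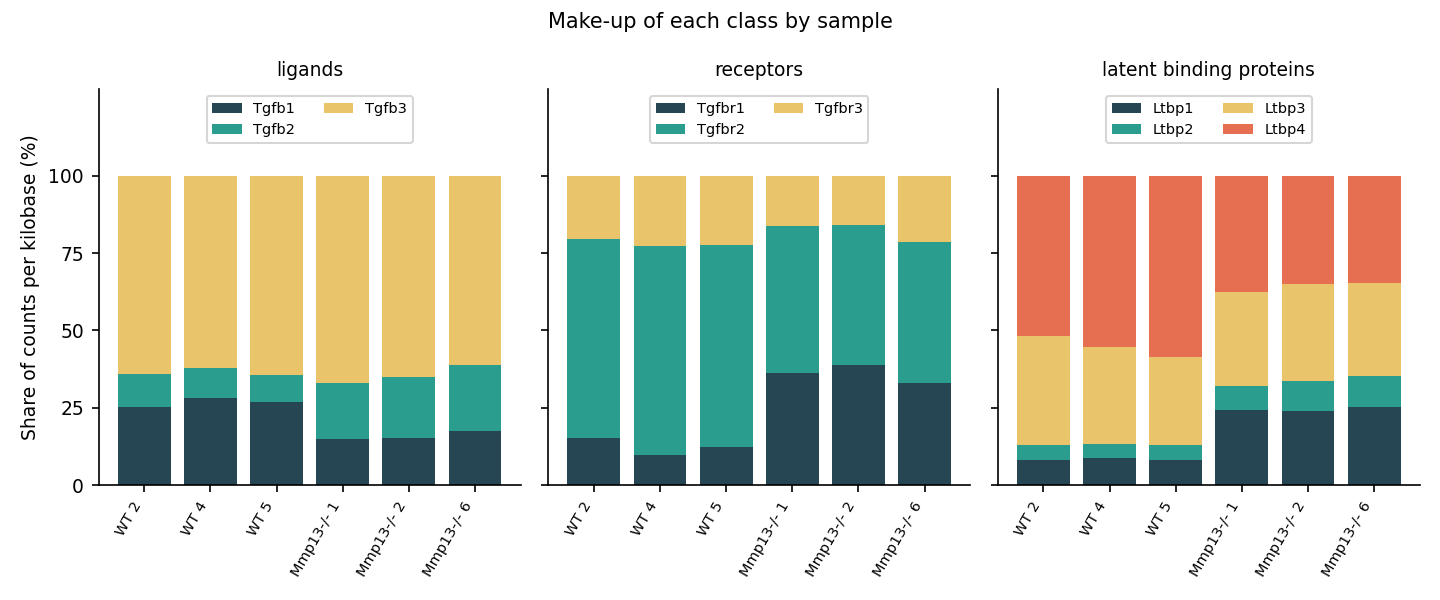
Share of summed counts per kilobase (y axis, percent) that each ligand, receptor and latent binding protein takes of its class, by sample. In Mmp13-/- samples the Tgfb1 share is 14.8% to 17.6% against 25.3% to 28.0% in WT, and the Ltbp4 band narrows from 55.3% to 35.8% on average.

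Other genes of the pathway were counted over 4 lists, which hold 71 genes, 70 of them tested. Over the 70, 17 were lower and 6 higher by the 2-fold rule, beside 9.68% and 20.4% of all genes tested. At any fold, 35 passed as lower, 14 as higher and 21 did not pass, beside 24.3% and 27.3% of all genes, and the median log2 fold change was -0.43. With GC correction, the counts by the 2-fold rule were 2 lower and 10 higher, beside 2.4% and 17.9% of all genes, those at any fold were 18 and 18, beside 9.52% and 26.7%, and the median was -0.00. The counts by the 2-fold rule after correction were thus near the shares over all genes. The same shares stand beside the counts of each single list below. The median over all genes tested, 0.10 under TMM scaling and 0.33 with GC correction, stands beside the list medians.

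Of 21 genes that process, anchor or activate the latent complex, 4 were lower and 2 higher by the 2-fold rule, and 9 passed as lower and 3 as higher at any fold. Furin, the protease that cuts pro-TGF-beta, measured 185, 222 and 191 CPM in WT and 57.8, 58.9 and 55.7 CPM in Mmp13-/- pulp (log2 fold change -1.79, edgeR adjusted p = 5.21e-05). As with Tgfb1, its genotypes lay far apart, and it passed with GC correction (-0.89, edgeR adjusted p = 0.000759). Emilin1, an inhibitor of pro-TGF-beta processing, Bmp1, a protease that cleaves Ltbp1, and Mmp14, a membrane protease, fell by 1.37, 1.30 and 1.23 on the log2 scale; Itgb1, an integrin subunit, rose by 1.24 on the log2 scale. With GC correction Emilin1 was at -0.17 and Bmp1 at -0.34, and neither passed (edgeR adjusted p = 0.311 and 0.0545), Mmp14 was at -0.46 (0.0237), under 2-fold, and Itgb1 was at 1.13. Plg, the plasmin precursor, was near the detection floor, with at most 0.328 CPM in WT and 0.501 to 1.27 CPM in Mmp13-/- pulp (log2 fold change 2.43, edgeR adjusted p = 0.0433), and among the fits that left out a sample was called only in that without WT sample 5. Fbn1, the fibrillin that anchors latent binding proteins, had a log2 fold change of -0.32 and did not pass (edgeR adjusted p = 0.165). The counts by the 2-fold rule were 0 lower and 4 higher in the edgeR fit with GC correction, where 3 passed as lower and 7 as higher at any fold, and the list median turned from -0.39 to 0.22.

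Of 12 co-receptors and extracellular modulators, 1 was lower and 2 higher by the 2-fold rule, and 8 passed as lower and 3 as higher at any fold. Dcn, decorin, a proteoglycan that binds TGF-beta, measured 87.8, 64.7 and 74.2 CPM in WT and 267, 366 and 295 CPM in Mmp13-/- pulp (log2 fold change 2.03). Fmod, fibromodulin, of the same proteoglycan family, moved the other way (-1.13). With GC correction Dcn was at 0.94, under 2-fold, and Fmod at -0.41, which did not pass (edgeR adjusted p = 0.0664). Cd109, a co-receptor that dampens the signal, rose by 1.23 on the log2 scale. Eng, endoglin of endothelium, was lower by -0.93 (edgeR adjusted p = 0.000771) and at 0.07 after GC correction; it was called by the 2-fold rule without WT sample 2, WT sample 5 or Mmp13-/- sample 2, which made the count of this list 2 lower. In the edgeR fit with GC correction, 0 were lower and 1 higher by the 2-fold rule, 1 passed as lower and 4 as higher at any fold, and the list median turned from -0.67 to 0.18.

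Of 17 genes of the intracellular relay, 16 were tested, and 6 were lower and 0 higher by the 2-fold rule; 10 passed as lower and 1 as higher at any fold. Smad7 (-1.58) and Smad6 (-1.34), inhibitory Smads, Ski (-1.27), a co-repressor, Tab1 (-1.22), an activator of the kinase Tak1, and Smad3 (-1.15), a Smad that the type I receptor phosphorylates, were among the 6. Smad3 measured 188, 191 and 175 CPM in WT and 92.9, 90.6 and 65.2 CPM in Mmp13-/- pulp. With GC correction none of the 16 differed by more than 2-fold, and 7 passed as lower and 0 as higher in the edgeR test, Smad3 (-0.51), Smad7 (-0.62) and Ski (-0.39) among the 7. Smad6 and Tab1, both at -0.17, did not pass after correction (edgeR adjusted p = 0.515 and 0.265).

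Of 25 genes known to respond to TGF-beta, 7 were lower and 2 higher by the 2-fold rule, and 9 passed as lower and 8 as higher at any fold. This list holds Ltbp2, and its collagens also mark odontoblasts and fibroblasts. Col1a1 (-2.16), Col5a1 (-1.66) and Col3a1 (-1.58), which encode fibrillar collagens, fell, as did Smad7. Postn, periostin, measured 475, 556 and 591 CPM in WT and 2962, 4283 and 3371 CPM in Mmp13-/- pulp (log2 fold change 2.71). Without WT sample 2 or without Mmp13-/- sample 6, the number of genes called higher on this list was 1 in place of 2. The responding genes thus moved in both directions, and with GC correction the counts were 2 lower and 5 higher by the 2-fold rule and 8 and 7 at any fold. Of those named, Col1a1 (-1.05) and Postn (1.34) stayed beyond 2-fold after correction, and Col5a1 (-0.59), Col3a1 (-0.95) and Smad7 (-0.62) did not.

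**Figure D5:**
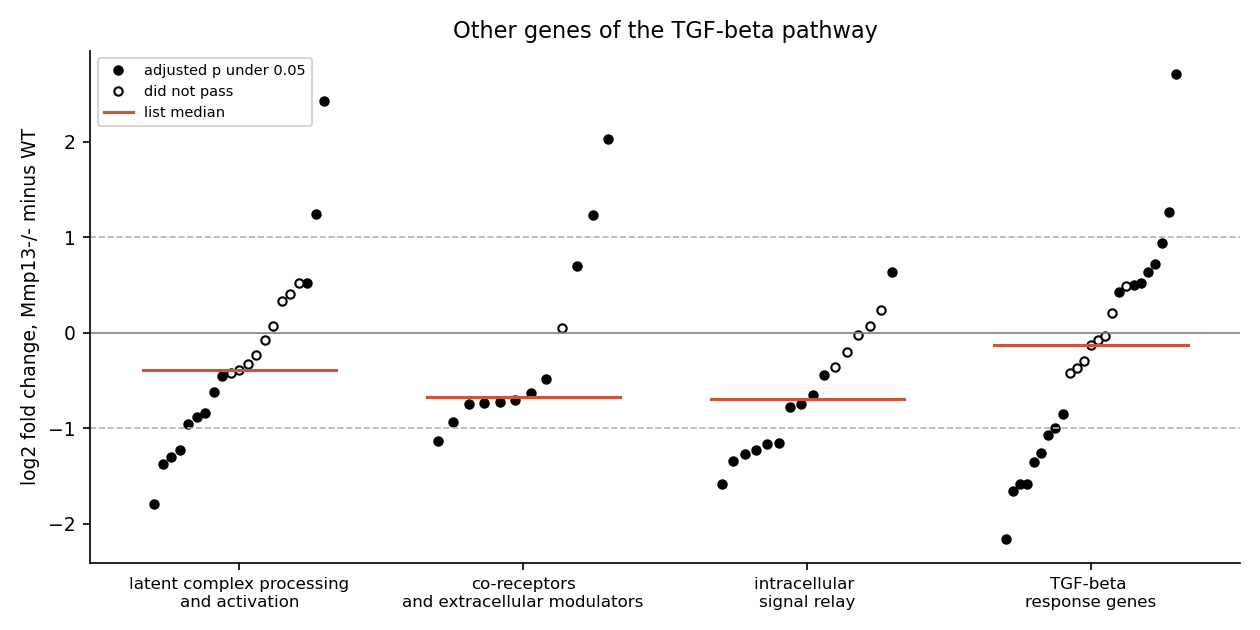
Log2 fold change, Mmp13-/- minus WT (y axis), of each tested gene in the 4 pathway lists; filled points have an adjusted p under 0.05, open points do not, red bars are list medians and dashed lines mark 2-fold. The list medians are -0.39, -0.67, -0.70 and -0.13, and the relay list has no point above 2-fold.

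Markers of the cells that pulp could hold also differed between genotypes. The marker counts that follow stand beside 9.68% of all genes tested called lower and 20.4% called higher by the 2-fold rule. Odontoblast markers were present, Dspp at 1646, 524 and 725 CPM in WT and 2341, 2422 and 1571 CPM in Mmp13-/- pulp. The summed level of 10 odontoblast markers, most of it Col1a1, was 37279 to 45093 CPM in WT and 11322 to 14213 CPM in Mmp13-/- pulp, with 2 of the 10 lower and 4 higher by the 2-fold rule. Skeletal muscle markers, which pulp itself would not be expected to express, summed to 96183 to 111049 CPM in WT and 26139 to 56845 CPM in Mmp13-/- pulp, with 6 of 8 lower. Fibroblast markers summed to 15704 to 24049 CPM in WT against 7585 to 10184 CPM (2 of 9 lower, 2 higher). Most of this sum was Col3a1, at 13893, 21868 and 22383 CPM in WT and 5539, 7680 and 6254 CPM in Mmp13-/- pulp. Dcn, by contrast, was among the 2 fibroblast markers called higher. Mural cell markers summed to 702 to 776 against 518 to 674 CPM (2 of 7 lower, 1 higher), and endothelial markers to 369 to 424 against 265 to 369 CPM (1 of 8 lower, 1 higher).

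Markers of blood and marrow cells summed to higher levels in every Mmp13-/- sample. Platelets and leukocytes are among the cells that express Tgfb1, and the cell source of Tgfb1 in these libraries was not tested. Platelet and megakaryocyte markers summed to 39.6 to 62.6 CPM in WT and 86.9 to 119 CPM in Mmp13-/- pulp (5 of 9 higher), and neutrophil markers to 132 to 277 against 693 to 1714 CPM (8 of 8 higher). Eosinophil markers summed to 3.25 to 8.72 CPM in WT against 33.8 to 185 CPM (5 of 5 higher), B lineage markers to 7.56 to 14.8 against 38.4 to 58.1 CPM (7 of 7), erythroid markers to 438 to 714 against 912 to 1681 CPM (4 of 7) and osteoclast markers to 72.7 to 77.6 against 255 to 468 CPM (6 of 6). Macrophage markers summed to 143 to 150 against 185 to 247 CPM (2 of 8 higher), ameloblast and dental epithelium markers to 4570 to 5942 against 4504 to 5905 CPM (2 of 7 lower, 1 higher) and Schwann cell markers to 83.1 to 283 against 89.9 to 110 CPM (0 of 6 called). No marker was at 0 in every WT sample. With GC correction, the mural cell, endothelial and dental epithelium markers called lower no longer passed the edgeR test. The markers of these lists called higher were then under 2-fold. Of the 2 fibroblast markers called lower, Col3a1 was at -0.95 after correction and still passed (edgeR adjusted p = 0.0163). The other, Twist1, was at -0.12 and did not (edgeR adjusted p = 0.478). The 2 fibroblast markers called higher, Dcn and Lum, were at 0.94 and 2.56 and both still passed as higher. The part of all these cell types in the differences of the 10 genes was not tested.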

How the data were processed

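Paired-end RNA sequencing (Illumina HiSeq) was used for 3 WT and 3 Mmp13-/- samples of dental pulp, grouped by the genotype in their labels. Estimated counts per Ensembl gene were deposited by the authors, who made them in Strand NGS; they carry fractions and were rounded to whole numbers here. The deposited log2 values were made by the authors from these counts, with DESeq size factors, a floor of 1 count, and the median of each gene over samples subtracted; they were checked by recomputation for the 10 genes (largest difference 9.19e-07). DESeq and the build mm10 are named in the submitters' processing notes, and the aligner settings, annotation release and strand of counting are not given in the sources used here.

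Counts were tested in R 4.3.3 with edgeR 4.0.16 (quasi-likelihood test, TMM factors, filterByExpr by genotype, Benjamini-Hochberg adjustment over 24534 genes, no covariates). Calls required an adjusted p below 0.05 with more than a 2-fold difference. Alternatives were other scaling factors, other filters on low counts, DESeq2 1.42.0, limma 3.58.1 on the deposited log2 values, an unmoderated gene-by-gene test with Storey's q-values modelled on the study's methods (its filters were not matched), each sample left out, GC correction (a loess curve of span 0.4 for each sample, fitted on genes with a mean log2 CPM above 3) and subtraction of a background rate per kilobase taken from 1451 odorant and vomeronasal receptor genes. GC content (longest transcript), exon length and position came from GENCODE M21 on GRCm38, matched by identifier for 99.8% of genes, and promoters from RefSeq on the same build, where 8 of the 10 genes were listed and Tgfb3 and Tgfbr3 were not. Shares and ratios were compared by exact permutation.

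The 10 genes were named in full. Of the 4 pathway lists, at most the 4 called genes with the largest change in each direction were named, with Fbn1, Furin, Smad3 and Eng added; of each of the 14 cell marker lists, at most the 2 most abundant in WT. The members, lists and alternatives were chosen with earlier results of these data known. Some items that the rule would name are not reported here. Gm10800, Twist1 and Lum were named after their values were seen. The main fit, the other scaling factors, DESeq2, limma, the gene-by-gene test and GC correction were run on simulated data with 200 changed genes. The other filters, background subtraction and both corrections together were not. The simulation held no background reads and far fewer changed genes than were called here, so it does not show how the fits perform on libraries like these.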

Additional observations from a re-analysis of the deposited data

How the results depend on the processing

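No paired analysis was possible because the genotypes share only the replicate number 2. Over all genes, the number called moved from 7381 to 4666 with a minimum of 10 counts in every sample, 14325 with no filter, 12695 by a gene-by-gene test modelled on the study's, which need not match its own filters, and 3677 with GC correction and background subtraction together, an alternative chosen after seeing the data; it ranged from 7146 to 8751 without each sample in turn. Members called lower were 4 in place of 3 with no filter, with limma and by the gene-by-gene test. The same count of 4 was found without any single sample other than Mmp13-/- sample 6. Members called lower changed from 3 to 1 with GC correction and 1 with GC correction and background subtraction, and members called higher from 1 to 0 and 0, although 3 passed the edgeR test as higher at any fold with GC correction. Pathway genes called changed from 23 to 12 and 11 under the same corrections. The sign of Tgfb2, which passed in none of these fits, turned to -0.11 with no filter, -0.050 with limma and -0.050 by the gene-by-gene test, and ranged from -0.19 to 0.036 without each sample in turn; Ltbp2 turned to 0.72 with GC correction and 0.68 with both corrections, and passed as lower with no filter (-0.48, edgeR adjusted p = 0.0398) and by the gene-by-gene test (-0.44, Storey q-value 0.0416). Tgfb1, Tgfbr1 and Ltbp4 kept their direction and passed in 11 of 11 alternatives and 6 of 6 fits without a sample. Tgfb3 and Tgfbr2 did not pass with total counts alone (edgeR adjusted p = 0.0550 and 0.321), Tgfbr3 passed in 3 of 11 alternatives, and Ltbp1 passed with upper-quartile factors (edgeR adjusted p = 0.0486). Scaling by upper quartiles or total counts shifted the median over all tested genes up by 0.21 and 0.11 on the log2 scale. Of the counts over single lists, 30 moved by more than 1.5 times and 106 did not. The shares and the receptor ratio kept their direction in every alternative run, but 3 samples against 3 cannot give an exact p under 0.1.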

Other observations

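The genes whose log2 CPM (with 0.5 added to each CPM) over the 6 samples followed Tgfb1 most closely were Sympk (Pearson r = 0.9998), Scaf1 (0.9998) and Mapt (0.9994). Sympk, a scaffold of the polyadenylation machinery, measured 138, 149 and 134 CPM in WT and 50.9, 56.0 and 52.8 CPM in Mmp13-/- pulp, and Scaf1 and Mapt had log2 fold changes of -1.59 and -1.18. Of the 10526 genes compared, 4.32% had an r over 0.99 with Tgfb1, and the 6 points share the 2 genotypes and the same libraries, so these values are given as a description.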
